A study of Mus musculus with 6 samples.

Results

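The genes of the phosphocreatine and adenylate energy buffer were examined in satellite cells (SCs), the resident stem cells of skeletal muscle, from mice with and without induced deletion of NF-YA, the DNA-contacting subunit of the transcription factor NF-Y. The genes were chosen by symbol, 10 of the 35976 genes in the deposited tables: the creatine kinases Ckm, Ckb, Ckmt1 and Ckmt2, the adenylate kinase Ak1, the AMP deaminases Ampd1 and Ampd3, the creatine transporter Slc6a8, and the creatine synthesis enzymes Gatm and Gamt. RNA-seq libraries from 3 cultures of NF-YA cKO SCs were compared with libraries from 3 control cultures, labelled NF-YA fl/fl. Mice of both genotypes carried floxed NF-YA alleles, with LoxP sites in introns 2 and 8, and both received tamoxifen (5 daily injections of 0.1 mg per g of body weight). The NF-YA cKO mice in addition carried Pax7-CreERT2, a tamoxifen-dependent Cre recombinase driven by Pax7, so that recombination was directed to Pax7-expressing cells, whereas the NF-YA fl/fl mice had no Cre and served as control. The methods give an age of 6 to 8 weeks and male mice for the injections, and the sample labels an age of 5 to 7 weeks. Hindlimb muscles were taken 7 days after the last injection, cells positive for CD31, CD45, CD11b or Sca1 were removed with magnetic beads, and the remaining cells were collected after 4 days in growth medium. The sources used here do not say whether a library came from 1 mouse or from several, so that the p-values below measure the spread between these libraries.

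Creatine kinases move a phosphate between ATP and creatine, which lets a contracting cell refill ATP at the site of use from a pool of phosphocreatine. Adenylate kinase regains ATP from pairs of ADP molecules and makes AMP, and AMP deaminase converts this AMP to IMP, the first step of the purine nucleotide cycle. In muscle the cytosolic creatine kinase of myoblasts and other tissues, encoded by Ckb, is joined during differentiation by the muscle form encoded by Ckm and by the sarcomeric mitochondrial form encoded by Ckmt2. Creatine itself is made in succession by the products of Gatm and Gamt, mostly in other organs, and is taken up into muscle by Slc6a8.

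Levels are given as CPM (rounded expected counts relative to the normalized library size), or as TPM (transcripts relative to the total, scaled to transcript length) wherever genes are compared with each other. A gene was called when edgeR's quasi-likelihood test, adjusted over the 17348 tested genes, gave an FDR under 0.01 and the log2 fold change was above 1 or below -1. In the fit 9 of the 10 genes could be tested, all but Ckmt1, which did not reach the count minimum. Of these 9, 5 were called lower in NF-YA cKO (Ckm, Ckmt2, Ampd1, Gatm and Gamt), and none was called higher. Over all tested genes, 7.67% were called lower and 4.65% higher. The count of 5 rested on single libraries: 7 of the genes were called lower without NF-YA fl/fl replicate 3 (Ckb and Ak1 in addition), and 2 without NF-YA cKO replicate 2 (Ckmt2 and Ampd1). Over the 9 genes the log2 fold change had a median of -1.87, compared with -0.02 for all tested genes.

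Library totals lay between 26936230 and 41118984 expected counts. The transcript of the deleted Nfya allele made up 27.25% to 40.54% of the Nfya TPM in the NF-YA cKO libraries and was at 0 in every NF-YA fl/fl library, so that most Nfya RNA in NF-YA cKO was still of other transcripts. Total Nfya was at 9.25, 8.38 and 9.19 TPM in NF-YA cKO, within the range of 7.33, 9.87 and 9.67 TPM in the controls. The SC marker Pax7 and the myoblast factor Myod1 were detected in all 6 libraries. The X-inactivation transcript Xist was at 45.48 to 54.48 TPM in NF-YA cKO and at no more than 0.03 TPM in NF-YA fl/fl. The Y-linked Ddx3y was at 0.01 to 0.02 TPM in NF-YA cKO and at 16.84 to 25.89 TPM in NF-YA fl/fl. These are the levels of female cells in NF-YA cKO and of male cells in NF-YA fl/fl, although the methods give male mice. Genotype and sex-linked expression therefore cannot be told apart in any comparison below. A list of 18 markers of differentiated muscle, 16 of which were in the tables, summed to between 77.6 and 165.75 TPM in NF-YA cKO and between 9090 and 13592 TPM in NF-YA fl/fl, with all 16 called lower and none at 0 in any library. Macrophage markers summed to between 152 and 291 TPM in NF-YA cKO and between 4.03 and 17.2 TPM in NF-YA fl/fl, with 7 of 8 called higher. For Schwann cells the sums were 22.8 to 28.6 against 7.02 to 21.3 TPM (4 of 6 called higher), and for smooth muscle cells and pericytes 502 to 701 against 1504 to 1902 TPM (2 of 6 called lower). These 2 were Acta2 (361 to 547 against 1022 to 1203 TPM) and Des, which is also in the list of SCs and myoblasts. Myh11, Rgs5, Cspg4 and Pdgfrb were not called (log2 fold changes 0.76, -3.37, -0.31 and -0.99). The sums for SCs and myoblasts were 672 to 771 against 1105 to 1444 TPM (1 of 8 called higher and 2 lower), but the genes of this list went in both directions. Des (104 to 141 against 460 to 590 TPM) and Cdh15 were called lower, and Met was called higher. Not called were Pax7 (log2 fold change 0.94), Vcam1 (0.86), Myf5 (0.80), Myod1 (-0.08) and Itga7 (-1.25). Fibroblast markers gave 261 to 376 against 78.5 to 477 TPM and endothelial markers 3.60 to 4.67 against 1.02 to 3.17 TPM, with 1 gene of each list called higher. The part of these marker differences in the results below was not tested. In such bulk cultures, fewer cells of a type and less RNA per cell cannot be told apart.

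The sequences just upstream of 3 creatine kinase genes are shown first, because NF-Y binds the CCAAT box. Of these genes Ckm and Ckmt2 were called lower and Ckb was not. Any relation between the motifs and the levels was not tested. They were taken from the RefSeq promoters of GRCm38.p6 (mm10), 250 bases before the start site, without bases that belong to an annotated exon. Capitals mark CCAAT on either strand (CCAAT or ATTGG) and CANNTG, the E-box bound by the myogenic factors. The sequences read 5′ to 3′ towards the start, and in them no CCAAT overlaps a CANNTG.
Ckm, chr7:19410844-19411024, plus strand: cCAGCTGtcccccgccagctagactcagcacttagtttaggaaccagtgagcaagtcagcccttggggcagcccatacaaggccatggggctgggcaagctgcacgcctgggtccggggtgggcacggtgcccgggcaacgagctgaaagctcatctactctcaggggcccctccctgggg
Ckb, chr12:111672339-111672588, minus strand: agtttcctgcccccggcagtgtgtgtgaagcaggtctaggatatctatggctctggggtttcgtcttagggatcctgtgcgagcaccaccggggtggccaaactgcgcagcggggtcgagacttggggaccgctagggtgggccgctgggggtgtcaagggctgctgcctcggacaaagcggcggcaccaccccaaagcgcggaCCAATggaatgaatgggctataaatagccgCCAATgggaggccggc
Ckmt2, chr13:91876924-91877135, minus strand: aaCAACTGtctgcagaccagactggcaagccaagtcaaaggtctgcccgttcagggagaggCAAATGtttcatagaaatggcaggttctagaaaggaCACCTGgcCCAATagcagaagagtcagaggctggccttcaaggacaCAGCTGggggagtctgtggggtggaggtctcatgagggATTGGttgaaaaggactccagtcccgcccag
In the full 300-base windows, which include 50 bases after the start, Ckm held 1 CANNTG and no CCAAT, Ckb held 2 CCAAT (first bases at -46 and -16 from the start) and no CANNTG, and Ckmt2 held 2 of the former and 4 of the latter. Of the 10 genes, 8 had an entry in the promoter table, with 14 start sites between them. At least 1 CCAAT was present at 6 of the 14 sites and at least 1 CANNTG at 11. Among all 32851 promoters of the same length, 37.4% held CCAAT and 72.3% held CANNTG. Of these promoters, 11.7% held 2 or more CCAAT, 6.49% held 4 or more CANNTG, and 10.2% held CCAAT without CANNTG. Ampd1 and Slc6a8 had no entry.

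Ckm, the creatine kinase of skeletal muscle (chromosome 7, 19411094 to 19421583), was at 67.4, 37.8 and 12.7 CPM in control replicates 1 to 3 and at 0.351, 0.434 and 0.870 CPM in NF-YA cKO replicates 1 to 3. Even the lowest control library stood far above the highest NF-YA cKO library, and the controls themselves differed widely. The log2 fold change was -6.11 (standard error 0.73, FDR = 0.00147, edgeR's quasi-likelihood test), a 69.3-fold lower level. In reads, the whole gene was represented by 10.95 to 36.95 expected counts per NF-YA cKO library and by 372.88 to 1762.85 per NF-YA fl/fl library. A transcript on the other strand, A930016O22Rik, overlaps the end of Ckm. The libraries were stranded, but the strand setting of the counting is not given in the sources used here, and the mean CPM of this antisense gene was 0.0587 in NF-YA cKO against 0.365 in the controls. Without NF-YA cKO replicate 2 the difference stayed as large (log2 fold change -6.00) with an FDR of 0.0128, past the limit.

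Ckmt2, the sarcomeric mitochondrial creatine kinase (chromosome 13, 91853386 to 91876923), was represented by 208, 166 and 60 counts in NF-YA fl/fl (7.95, 4.94 and 2.04 CPM) and by 0, 2 and 1 counts in NF-YA cKO. The gene was therefore at the limit of detection in every NF-YA cKO library and clearly present in every control. From the pooled 3 and 434 counts, the level in NF-YA fl/fl was 187-fold that in NF-YA cKO, with a 95% interval of 63.5 to 910 that covers counting error only. edgeR gave a log2 fold change of -7.40 (FDR = 0.00108), whose size depends on the prior count because of the near absence of reads in NF-YA cKO.

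Ckb, the cytosolic brain-type isoform found in most tissues and in myoblasts (chromosome 12, 111669355 to 111672338), was at 151.8, 128.0 and 55.8 CPM in the controls and at 59.3, 50.4 and 56.8 CPM in NF-YA cKO. Replicates 1 and 2 of the control were above all NF-YA cKO libraries, but control replicate 3 lay among them. With all libraries the log2 fold change was -1.01 (standard error 0.34) and the gene was not called (FDR = 0.0512, edgeR's quasi-likelihood test). The call changed under other settings. Leaving out NF-YA fl/fl replicate 3 gave -1.34 with an FDR of 0.000245, and DESeq2 with all libraries gave -1.04 with an FDR of 0.00979.

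Ckmt1, the ubiquitous mitochondrial isoform (chromosome 2, 121357773 to 121363737), was almost silent. It received 6, 3 and 4 counts in NF-YA cKO and 0 in all 3 NF-YA fl/fl libraries, where 3 counts would be 0.0900 to 0.111 CPM before normalization. With a floor of 3 counts over the control group, the NF-YA cKO level was 3.35-fold that floor. This ratio leaves out the counting error of the 13 pooled NF-YA cKO counts, so that it is not a lower limit. Only the NF-YA cKO libraries contained reads of the gene, and no test was made on so few counts.

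**Figure D1:**
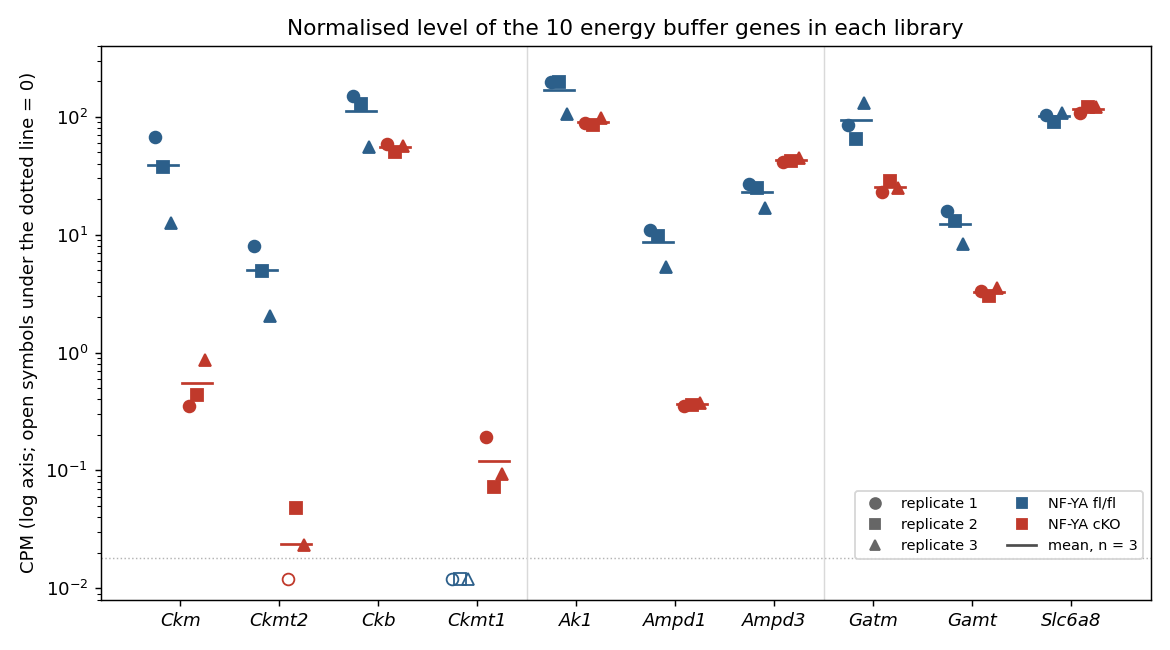
Normalised level (CPM, log axis) of the 10 genes in each of the 6 libraries, with NF-YA fl/fl in blue, NF-YA cKO in red, symbols for the replicate number and lines for the mean of 3. Open symbols under the dotted line stand for 0. Ckm, Ckmt2 and Ampd1 are separated by far the most, Ckb and Slc6a8 overlap, and Ampd3 is the only tested gene whose NF-YA cKO libraries all lie above the controls.

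The makeup of the creatine kinase transcripts was compared within each library in TPM, so that the scaling of the library does not enter. Ckb supplied 65.9%, 74.2% and 78.5% of the summed creatine kinase TPM in NF-YA fl/fl and 99.1%, 98.8% and 98.2% in NF-YA cKO. Ckm made up 30.7%, 23.0% and 18.7% in NF-YA fl/fl, against 0.616%, 0.901% and 1.57% in NF-YA cKO. The third isoform, Ckmt2, added 3.04% ± 0.339 (SD, n = 3) in NF-YA fl/fl and 0.0756% ± 0.0974 in NF-YA cKO. None of these shares overlapped between the genotypes, and each gave p = 0.1 in a two-sided exact permutation test, the smallest p that 3 libraries against 3 allow. NF-YA fl/fl replicate 3, whose Ckb level was that of the NF-YA cKO libraries, thus still carried Ckm at 23.8% of its Ckb TPM, while no NF-YA cKO library exceeded 1.60%. The summed creatine kinase level was 46.0 ± 7.41 TPM in NF-YA cKO and 143 ± 80.5 TPM in the controls (exact permutation test, p = 0.2), with NF-YA fl/fl replicate 3 at 50.4 TPM inside the NF-YA cKO range of 37.7 to 52.0 TPM. With CPM in place of TPM the difference of the means was -99.9 CPM (exact permutation test, p = 0.1), and the groups did not overlap.

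**Figure D2:**
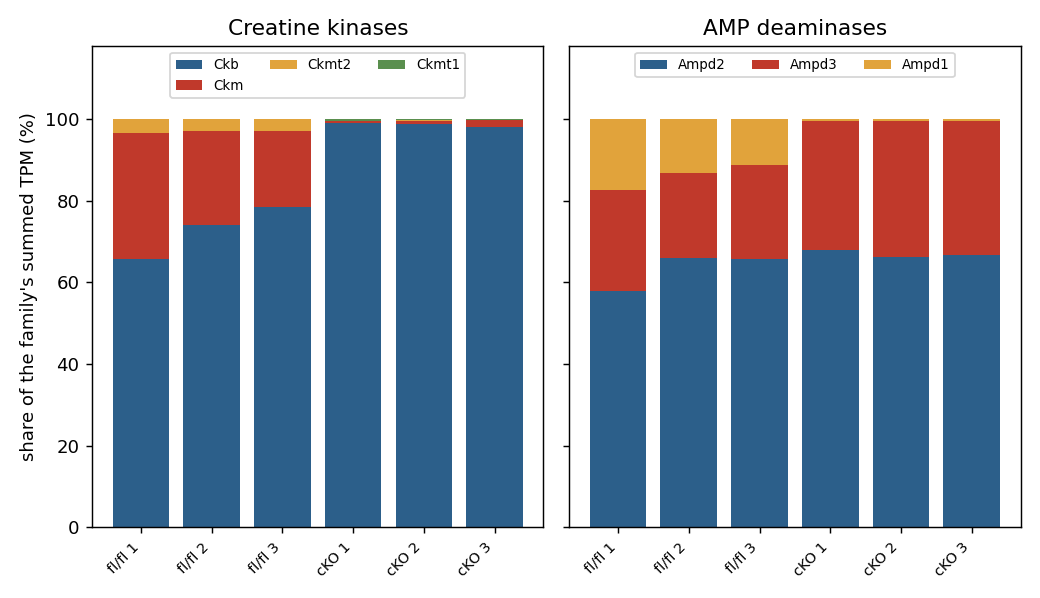
Share of each gene in the summed TPM of the creatine kinases and the AMP deaminases (percent, stacked bars from 0), for replicates 1 to 3 of either genotype. Ckm and Ckmt2 nearly vanish from the first family in NF-YA cKO and Ampd1 from the second.

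The muscle-type isoforms were also set beside the 16 markers of differentiated muscle, as a description added after seeing the data. Per 1000 TPM of the summed markers, Ckm was at 4.12, 3.51 and 4.59 TPM in NF-YA cKO and at 4.47, 3.61 and 1.04 TPM in NF-YA fl/fl. These groups overlapped, with NF-YA fl/fl replicate 3 the lowest of all libraries. For Ckmt2 the corresponding values were 0, 0.724 and 0.121 TPM against 0.498, 0.446 and 0.157 TPM, with at most 2 counts behind each NF-YA cKO value, too few to compare. Ampd1 was at 1.93, 1.34 and 0.965 TPM in NF-YA cKO and at 0.443, 0.541 and 0.245 TPM in NF-YA fl/fl, without overlap. The marker sum in the denominator differs between the genotypes itself, and no likeness of a gene to the markers was tested.

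Ampd1, the AMP deaminase of skeletal muscle fibers (chromosome 3, 103073897 to 103099720), was at 11.05, 9.75 and 5.29 CPM in the controls and at 0.351, 0.362 and 0.376 CPM in NF-YA cKO. The NF-YA cKO libraries were nearly equal and all far below the lowest control. The log2 fold change was -4.57 (standard error 0.35, FDR = 0.000314, edgeR's quasi-likelihood test), a 23.7-fold lower level, and the gene was called under every alternative tried. At the transcript level, RSEM placed all 11 to 16 NF-YA cKO counts on the predicted transcript XM_006501400, which held 18.3% ± 9.43 of the gene's TPM in NF-YA fl/fl, and none on NM_001033303, which held 68.3% ± 5.90 there. With so few reads this assignment is an estimate.

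Ampd3, the isoform first described in red blood cells (chromosome 7, 110767790 to 110812409), was the only tested member with all NF-YA cKO libraries above the controls. It was at 27.1, 24.9 and 16.9 CPM in the controls and at 41.4, 42.5 and 44.9 CPM in NF-YA cKO. The same held for 29.1% of all tested genes, while 6 of the 9 tested members were below without overlap, against 26.2% of all tested genes. The log2 fold change of 0.90 (standard error 0.18, FDR = 0.00846, edgeR's quasi-likelihood test) passed the FDR limit and not the limit on the fold, so that Ampd3 was not called. Its FDR was between 0.000183 and 0.0695 over the alternatives. Rnf141, which overlaps the end of Ampd3 on the other strand, also had a positive log2 fold change (0.48, FDR = 0.00899), and reads of the overlap cannot be assigned with certainty.

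Within the AMP deaminase family, which is completed by the widely expressed Ampd2, Ampd1 supplied 17.4%, 13.3% and 11.2% of the summed TPM in NF-YA fl/fl and 0.353%, 0.365% and 0.378% in NF-YA cKO. Ampd3 held 22.8% ± 1.94 in NF-YA fl/fl and 32.7% ± 0.857 in NF-YA cKO (n = 3), and Ampd2 held 63.2% ± 4.51 and 67.0% ± 0.866. Each comparison gave p = 0.1 (exact permutation test). The summed level of the family was 33.8 ± 13.5 TPM in NF-YA fl/fl and 40.1 ± 3.93 TPM in NF-YA cKO (p = 0.6, exact permutation test). Without NF-YA fl/fl replicate 3, which was at 20.0 TPM, the control mean was 40.7 TPM, so that the sign of this difference in TPM depends on that library. In CPM, Ampd2 (87.1, 83.3 and 88.0 in NF-YA cKO against 60.9, 78.0 and 48.8 in the controls) and Ampd3 were higher without overlap. Ampd1 was lower without overlap, and the sum in CPM was not compared.

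Ak1, the main cytosolic adenylate kinase of muscle (chromosome 2, 32621758 to 32635058), was at 199.5, 197.6 and 106.6 CPM in the controls and at 88.6, 85.5 and 98.1 CPM in NF-YA cKO. Control replicate 3 was close to the NF-YA cKO libraries but still above them, and in TPM it fell between them (51.8 TPM against 44.2 to 57.4). The log2 fold change was -0.89 (standard error 0.24, FDR = 0.0248, edgeR's quasi-likelihood test) and the gene was not called. When NF-YA fl/fl replicate 3 was left out the value was -1.13 with an FDR of 0.000176, which passed both limits.

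The Ak1 transcripts were not equally affected. A pair of them begin at different first exons. The 250 bases before each start are shown because the shares that RSEM estimated for these transcripts differed by genotype. The use of the starts themselves was not measured. Capitals mark CANNTG, and CCAAT was absent from both windows.
Ak1, start of NM_001198792, chr2:32621508-32621757, plus strand: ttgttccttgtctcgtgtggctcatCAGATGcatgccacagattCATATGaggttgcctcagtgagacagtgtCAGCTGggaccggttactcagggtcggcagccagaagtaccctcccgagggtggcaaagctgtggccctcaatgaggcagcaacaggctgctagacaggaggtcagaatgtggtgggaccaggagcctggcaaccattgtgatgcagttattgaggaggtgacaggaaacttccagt
Ak1, start of NM_001198791, chr2:32625187-32625436, plus strand: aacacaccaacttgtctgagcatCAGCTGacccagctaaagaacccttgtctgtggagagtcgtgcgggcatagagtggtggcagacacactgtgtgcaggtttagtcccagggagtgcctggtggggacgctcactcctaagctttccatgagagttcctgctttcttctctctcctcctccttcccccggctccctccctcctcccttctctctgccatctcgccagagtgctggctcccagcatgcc
NM_001198791, whose first exon in the annotation spans 32625437 to 32625538, took 54.75%, 50.27% and 50.51% of the Ak1 TPM in NF-YA fl/fl and 10.32%, 4.43% and 7.90% in NF-YA cKO. In TPM this was 64.4, 71.5 and 26.2 against 5.53, 1.96 and 4.54, so that the groups did not overlap on either scale (exact permutation test, p = 0.1). NM_001198792, with its first exon at 32621758 to 32621877, was at 30.6, 33.5 and 11.3 TPM in the controls and at 22.3, 19.0 and 26.8 TPM in NF-YA cKO. Those levels overlapped (p = 0.8, exact permutation test), although its share of the gene was 23.8% ± 2.14 in NF-YA fl/fl and 43.7% ± 2.60 in NF-YA cKO. NM_021515, the form with the most downstream first exon, was at 23.3 ± 11.6 TPM in NF-YA fl/fl and 13.9 ± 1.94 TPM in NF-YA cKO, again with overlap. The predicted transcript XM_006497624 was at 0, 0.185 and 0.627 TPM in the controls and at 9.31, 10.9 and 11.4 TPM in NF-YA cKO, the reverse of NM_001198791. RSEM divides reads of shared exons between such transcripts by likelihood, so that these levels are estimates, and replicate 3 of the control had the same split as the other controls despite its lower total.

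**Figure D3:**
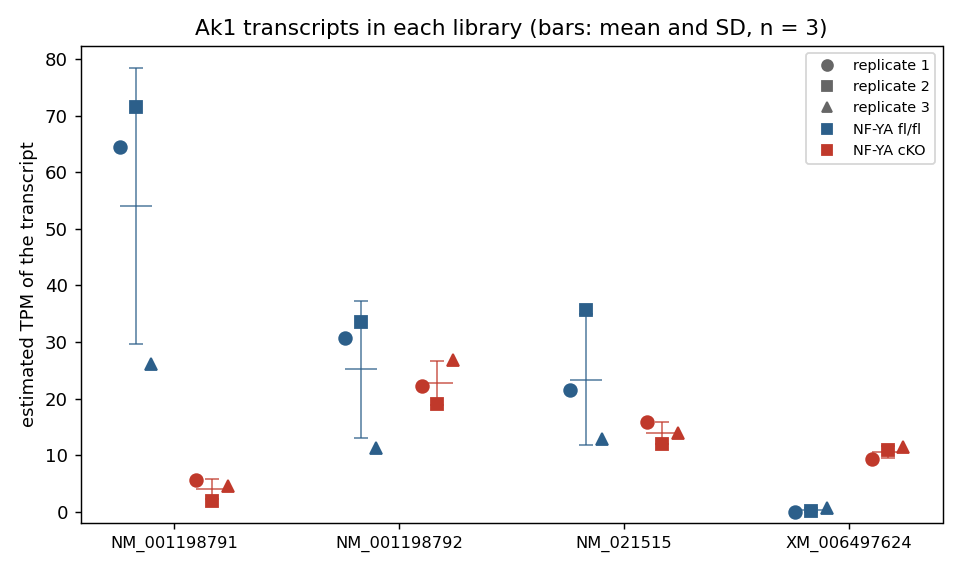
Estimated TPM of the 4 Ak1 transcripts that hold at least 5% of the gene's TPM in either genotype, per library (symbols for the replicate number, bars for mean and SD of 3; NF-YA fl/fl in blue, NF-YA cKO in red). NM_001198791 is high in the controls and near the bottom in NF-YA cKO, XM_006497624 shows the opposite, and the other two overlap.

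Gatm, the mitochondrial amidinotransferase that makes guanidinoacetate in the first step of creatine synthesis (chromosome 2, 122594473 to 122611277), was at 85.2, 65.1 and 130.9 CPM in the controls and at 23.2, 28.7 and 25.1 CPM in NF-YA cKO. Every control was above every NF-YA cKO library, and here control replicate 3 was the highest. The log2 fold change was -1.87 (standard error 0.26, FDR = 0.00222, edgeR's quasi-likelihood test), a 3.65-fold lower level. Gamt, the methyltransferase of the second step (chromosome 10, 80258151 to 80261025), was at 15.75, 13.1 and 8.41 CPM in the controls and at 3.32, 3.04 and 3.50 CPM in NF-YA cKO, without overlap. Its log2 fold change was -1.92 (standard error 0.25, FDR = 0.00193, edgeR's quasi-likelihood test), a 3.78-fold lower level. Both calls depended on each NF-YA cKO library, whose removal also cut the genes called lower over all tested genes from 1331 to between 523 and 664. Leaving out any one NF-YA cKO library lost both (FDR of 0.0123 to 0.0129 for Gatm and 0.0119 to 0.0156 for Gamt), and Gatm also without NF-YA fl/fl replicate 1 (FDR = 0.010), while the log2 fold change remained between -1.82 and -1.99 for Gatm. The ratio of Gatm to Gamt was 1.92, 1.75 and 5.59 in NF-YA fl/fl and 2.47, 3.34 and 2.52 in NF-YA cKO (TPM), with overlap (exact permutation test, p = 1). This rests on NF-YA fl/fl replicate 3, since the other two controls lay below every NF-YA cKO library and their mean was 1.84 against 3.09 with all controls.

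Slc6a8, the sodium-dependent creatine transporter of the plasma membrane, lies on chromosome X (73673133 to 73682502). It was at 103.9, 90.4 and 108.8 CPM in the controls and at 107.5, 122.2 and 120.7 CPM in NF-YA cKO. The groups overlapped at NF-YA cKO replicate 1, and the gene was not called (log2 fold change 0.21, standard error 0.11, FDR = 0.160, edgeR's quasi-likelihood test). Over the alternatives its FDR was between 0.0594 and 0.510. Since Xist separated the genotypes as well, a small difference of an X-linked gene cannot be told apart from sex-linked expression here.

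**Figure D4:**
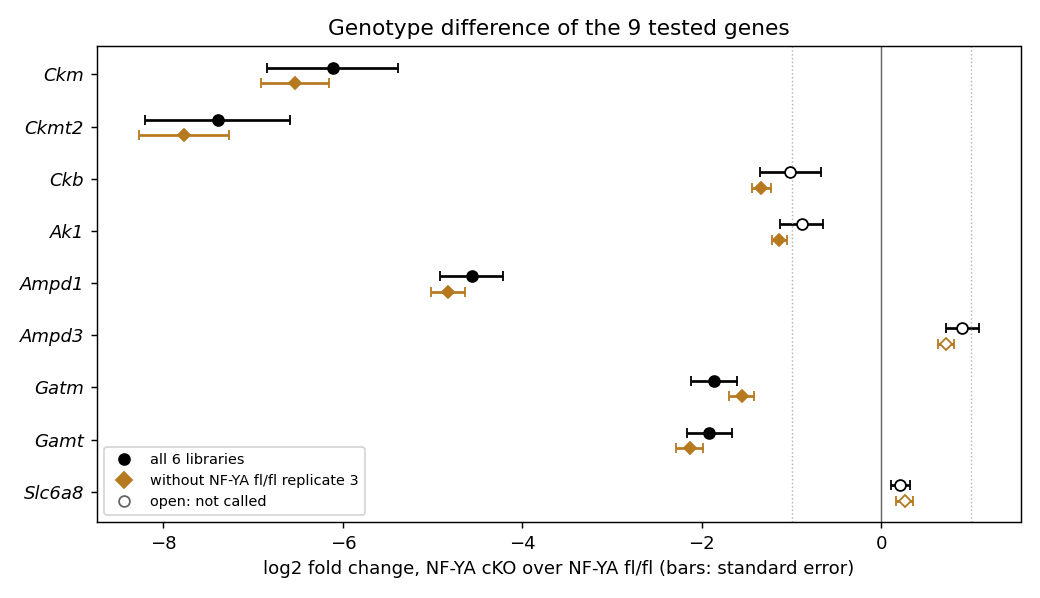
Log2 fold change of the 9 tested genes (NF-YA cKO over NF-YA fl/fl, bars for the standard error) with all 6 libraries (black circles) and without NF-YA fl/fl replicate 3 (ochre diamonds). Filled symbols were called, dotted lines mark -1 and 1. Without that library Ckb and Ak1 join the 5 called genes and no direction turns.

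The genes were ordered by their mean level in TPM. In NF-YA fl/fl the means were highest for Ak1 (104 ± 46.8 TPM), Ckb (101 ± 53.4 TPM) and Gatm (46.6 ± 7.94 TPM), whose ranges overlapped, and in replicate 3 Gatm was the highest of all. Ckm (37.2 ± 25.9 TPM) had a range wide enough to overlap these genes as well as Slc6a8 (29.9 ± 2.94 TPM) and Gamt (18.6 ± 7.50 TPM), which did not overlap each other, and its lowest value (9.41 TPM) was also below the highest of Ampd3 (9.72 TPM). Ampd3 (7.61 ± 2.66 TPM), Ampd1 (4.83 ± 2.25 TPM) and Ckmt2 (4.44 ± 2.74 TPM) came next, with overlapping ranges, and Ckmt1 was at 0 in every control library. In NF-YA cKO Ak1 (51.7 ± 6.81 TPM) and Ckb (45.4 ± 7.35 TPM) had the highest means, with overlap. They were followed by Slc6a8 (32.7 ± 1.96 TPM), then Ampd3 (13.1 ± 1.08 TPM) and Gatm (12.4 ± 0.344 TPM) with overlapping ranges, and Gamt (4.55 ± 0.655 TPM). Ckm (0.473 ± 0.248 TPM), Ampd1 (0.147 ± 0.0153 TPM), Ckmt1 (0.0967 ± 0.0569 TPM) and Ckmt2 (0.0300 ± 0.0361 TPM) were all below 1 TPM, and the ranges of Ckmt1 overlapped those of Ampd1 and Ckmt2.

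NF-YA fl/fl replicate 3 stood apart from the other controls in most of these genes. It had the lowest control CPM for 7 of the 9 genes detected in NF-YA fl/fl and the highest for the other two, Gatm and Slc6a8. Against the mean of replicates 1 and 2, its Ckm level was 4.16-fold lower, Ckmt2 3.17-fold, Ckb 2.51-fold, Ampd1 1.97-fold and Ak1 1.86-fold, while Gatm was 1.74-fold higher. The summed markers of differentiated muscle were 9090 TPM in this library, compared with 13592 and 11512 TPM in replicates 1 and 2, although Myog (1026 TPM against 825 and 610) and Actc1 were highest in it. Fibroblast markers summed to 78.5 TPM in it, against 276 and 477 TPM, Schwann cell markers to 21.3 against 7.02 and 8.96 TPM, and markers of SCs and myoblasts to 1444 against 1130 and 1105 TPM. The part of these differences in the values of this library was not tested. For the tested genes the coefficient of variation among controls ranged from 9.46% for Slc6a8 to 69.8% for Ckm. Among NF-YA cKO libraries it was 3.49% to 10.97% outside Ckm (50.5%) and Ckmt2 (101%).

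Genes with a pattern most like that of Ckm over the 6 libraries were Kidins220 (Pearson r = 0.999 of log2 CPM), Fyco1, Gbp6, Tlr4 and Fsd1l, out of 9457 genes compared. For Ckb they were Fam63b (r = 0.999), Loxl1, Fez1, Hspa1b and Slit2. Since 6 libraries of 2 genotypes are all the points there are, these values describe likeness in this data set only. Of the genes named for Ckm, Fyco1, Gbp6 and Fsd1l were called lower (log2 fold changes -1.13, -3.31 and -1.68), and none of those named for Ckb was called.

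Other genes that handle adenylates were followed in 6 lists with 41 genes, of which 38 were tested, 3 were called higher and 3 lower, with a median log2 fold change of 0.47 against -0.02 over all tested genes. This is 7.89% in each direction, beside 4.65% higher and 7.67% lower over all tested genes, so that the lower count is near the background. In the purine nucleotide cycle, which returns the IMP made by AMP deaminase to AMP, the genes for adenylosuccinate synthase parted. Adssl1, the muscle form, was at 35.4, 17.4 and 16.0 CPM in the controls and at 2.46, 2.05 and 2.96 CPM in NF-YA cKO (log2 fold change -3.20, FDR = 0.00115, edgeR), and Adss, the form of other tissues, at 56.7, 76.5 and 53.4 CPM against 121.2, 134.7 and 121.4 CPM (1.02, FDR = 0.00293). Neither pair of groups overlapped. Adssl1 lost its call without NF-YA cKO replicate 2. The call of Adss, whose value is just past the limit of the fold, was lost under DESeq2 and several other alternatives. Adsl, the lyase that completes the cycle, was not called (0.71, FDR = 0.00204), nor was Ampd2 (0.46, FDR = 0.0679).

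AMP-activated protein kinase senses the AMP that adenylate kinase makes, and 2 of its 7 subunit genes were called lower. Prkag3, the γ subunit of skeletal muscle, was at 56.1, 41.2 and 49.3 CPM in the controls and at 0.128, 0.410 and 0.564 CPM in NF-YA cKO (log2 fold change -6.98, FDR = 9.04e-05, edgeR). Prkaa2, the catalytic subunit that prevails in muscle, was at 50.5, 31.1 and 35.0 CPM against 6.35, 5.60 and 6.75 CPM (-2.64, FDR = 0.000347). In both genes, control replicate 3 was within the range of the other controls. The subunit genes with the highest mean TPM over all libraries, Prkag1, Prkaa1 (the other catalytic subunit) and Prkab1, had log2 fold changes of 0.58, 0.13 and 0.49 and were not called.

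Among the further adenylate kinases none of 6 tested genes was called, although Ak6 (log2 fold change 0.92, FDR = 0.00303) missed only the limit on the fold. Ak3 and Ak5 had -0.16 and -0.71. In the breakdown and salvage of AMP and IMP, 1 of 9 genes was called: Aprt, adenine phosphoribosyltransferase, was at 63.2, 61.9 and 85.5 CPM in the controls and at 157.3, 157.4 and 140.7 CPM in NF-YA cKO (1.11, FDR = 0.00189). This call was lost under glmTreat, which tests whether the fold exceeds the limit, and without NF-YA cKO replicate 1 or 2 or NF-YA fl/fl replicate 1. Hprt (0.77), Adk (0.68), Nt5c1a (1.57, FDR = 0.254) and Nt5c2 (-0.52) were not called. The mitochondrial carriers that exchange ATP for ADP differed from each other, with Slc25a4, the form of heart and muscle, at -0.24 (FDR = 0.0860) and Slc25a5 at 0.98 (FDR = 0.000634). No gene of that list was called, nor was the channel gene Vdac2 (0.47). Of the nucleoside diphosphate kinases, the mitochondrial Nme4 was called higher (1.32, FDR = 0.00311), while Nme1, Nme2 and Nme5 had 0.83, 0.50 and -0.84 without a call. The call of Nme4 was lost under glmTreat, without any one NF-YA cKO library and without NF-YA fl/fl replicate 1.

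**Figure D5:**
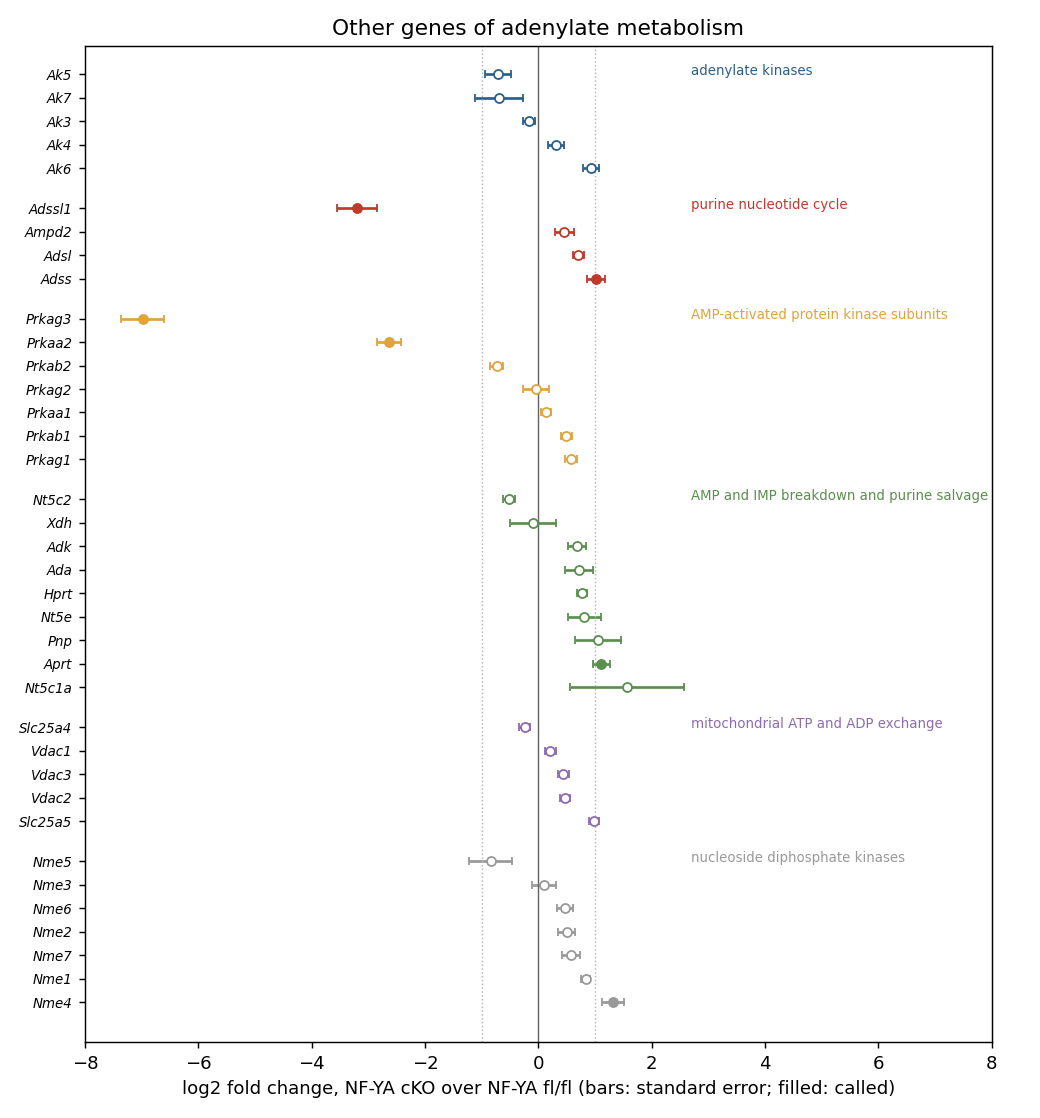
Log2 fold change (NF-YA cKO over NF-YA fl/fl, bars for the standard error) of tested genes from 6 lists of adenylate metabolism, filled where called, with dotted lines at -1 and 1. Prkag3, Adssl1 and Prkaa2 lie far to the left, and most other genes lie between 0 and 1.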

How the data were processed

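SCs from 3 cultures per genotype were profiled by stranded total RNA-seq (500 ng of RNA, paired reads of 75 nt). Per the labels and methods, Bowtie2 was run against mm10 transcripts and RSEM estimated abundance. RSEM divides reads shared by transcripts, so that the deposited expected counts need not be whole and are not normalized. In the deposited TPM values, effective transcript length and a fixed sum per library are already taken into account, and the deposited isoform tables give each transcript's percent of its gene's TPM.

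Here expected counts were rounded, and the 17348 of 35976 genes in which 2 libraries or more exceeded 10 counts entered edgeR 4.0.16 (TMM, quasi-likelihood test, genotype only, Benjamini-Hochberg adjustment) in R 4.3.3, with calls at an FDR under 0.01 where the log2 fold change exceeded 1 in either direction, limits taken from the study's methods. Shares and sums of TPM were compared with two-sided exact permutation tests, whose smallest p is 0.1. Totals of 26936230 to 41118984 expected counts make 3 counts equal to 0.0730 to 0.111 CPM before normalization. The interval of a count ratio is a 95% exact interval and covers counting error only. The study itself used DESeq2 with these limits. Also run here were DESeq2 1.42.0, edgeR with the size factors of DESeq2, filterByExpr, no filter, counts without rounding, limma 3.58.1 on log2(TPM + 1) and log2(TPM + 0.1), glmTreat, an FDR under 0.05, the replicate number as a block, and leaving out each library. The fit was tested on simulated data.

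Coordinates and promoters are those of RefSeq (GRCm38.p6), and first exons those of GENCODE M21. Named were all 10 genes, their transcripts with at least 5% of the gene's TPM in either genotype, for Ckm and Ckb the 5 other genes of at least 10 CPM with the most similar pattern (Pearson correlation of log2(CPM + 0.5)), and from each list of other pathway genes up to 3 with the highest mean TPM and those with the highest and lowest log2 fold change. Prkaa2 falls outside this rule and was named as 1 of the called genes after its values were seen, and genes that overlap a member were named for that overlap. The genes, lists and tests were chosen with earlier results of these data known. The values of 1 listed gene are not reported here, and the plot of the lists leaves it out. No table of protein sequences was used here.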

Additional observations from a re-analysis of the deposited data

How the results depend on the processing

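With 3 libraries per genotype, the spread between libraries and not the depth limits most comparisons, except for Ckmt1 in both genotypes and Ckmt2, Ckm and Ampd1 in NF-YA cKO, which rest on at most 36.95 expected counts per library. Directions did not turn for any of the 9 tested genes, the creatine kinase sum or the shares of Ckm, Ckb and Ampd1 under the alternatives run. The difference of the AMP deaminase sum, 40.1 TPM in NF-YA cKO against 33.8 TPM in the controls, turned without NF-YA fl/fl replicate 3 (40.7 TPM), a comparison added after seeing the data. This turn was seen in TPM, and the sum in CPM was not compared. The number of genes called lower among the members was 5, and 6 under DESeq2 (Ckb in addition), the tool named in the study's methods. It was 3 under glmTreat (Ckm, Ckmt2 and Ampd1), and ranged from 2 to 7 when libraries were left out, the lowest without NF-YA cKO replicate 2 and the highest without replicate 3 of the controls. Over the whole table, 806 genes were called higher and 1331 lower, which became 986 and 1804 with DESeq2, 97 and 510 under glmTreat and 231 and 704 with limma on log2(TPM + 1). With limma on log2(TPM + 0.1) 361 were called higher, and with an FDR under 0.05 2025 were called lower. Leaving out a library gave 177 to 890 genes higher and 523 to 1684 lower, the lowest numbers without NF-YA cKO replicate 2. Of the other pathway genes 3 were called higher, 0 under glmTreat, and 0 to 4 when libraries were left out. The 3 called lower became 2 without NF-YA cKO replicate 2, where Adssl1 was lost. Gamt lost its call with limma on log2(TPM + 1) (FDR = 0.0103). Correlations of same-numbered deviations were 0.165, -0.069 and 0.053, and those of differently numbered ones lay between -0.138 and 0.099. With 3 libraries per genotype, these cannot decide whether the replicate numbers pair the libraries. With a replicate block the same 5 members were called lower and 3 pathway genes in each direction. The causes of these changes were not tested.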
